A study of Mus musculus with 3 samples.

Results

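Neutrophil granule and S100 genes were followed in isolated mouse brain vessels, in 10 of the 29917 genes that the files name: S100a8, S100a9, Ltf, Ngp, Camp, Lcn2, Mpo, Elane, Fpr1 and Csf3r. The 10 genes were listed by name with their ratios between these libraries already known. Their levels and ratios are therefore a description, and no test was run on them. Polyadenylated RNA was sequenced in 3 libraries from males aged 3 months, 1 library per group and the vessels of 3 mice pooled in each. The groups were C57BL6 WT, C57BL6-BALB/c WT and Cx30-/-, a line deleted in every cell type for connexin 30 (gene Gjb6), a gap junction protein of astrocytes that is enriched in the endfeet surrounding vessels. The labels give the Cx30-/- library a C57BL6 background and the methods a mixed C57BL6/Balbc background, so both WT libraries served as controls, and genotype, background and preparation cannot be told apart. The study describes the preparation as holding endothelial cells, smooth muscle cells and pericytes, and does not name granulocytes there.

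Neutrophils are blood granulocytes that fill their granules in order as they mature in the bone marrow. The azurophil granules, which hold Mpo and Elane, are made first, the specific granules with Ltf, Ngp, Camp and Lcn2 later, and the cytoplasm of the mature cell is packed with the calcium-binding S100a8 and S100a9 proteins. Brain tissue normally holds few neutrophils outside the vessel lumen, and Lcn2 is also known as an acute-phase gene that endothelial cells and astrocytes can make.

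Counts are given as normalized counts, the deposited number of alignments on a transcript divided by 1 size factor per library. The deposited counts summed to between 50375426 and 60725557 per library over transcripts, with a read counted again for each transcript that shares its exon. A gene is called different when its ratio between a pair of libraries was 2 or more and either of them held 50 normalized counts or more. With no replicates, each 95% interval covers the counting of reads only, and not the variation between mice or preparations. Gjb6 itself had 2899 counts in C57BL6 WT, 2246 in C57BL6-BALB/c WT and 96 in the Cx30-/- library. The libraries also differed in cell markers. The summed level of 10 endothelial markers was 114996 normalized counts in C57BL6 WT, 67414 in C57BL6-BALB/c WT and 140380 in Cx30-/-, and that of 9 erythroid markers was 7738, 4364 and 18521 in the same order.

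Of the 10 genes, 4 were at least 2-fold higher in the Cx30-/- library than in both WT libraries: S100a8, S100a9, Ngp and Camp. Against C57BL6 WT alone, 5 were called higher, the fifth being Ltf, and 0 lower. Against C57BL6-BALB/c WT alone, 5 were called higher, the fifth being Lcn2, and 0 lower. Over all genes, 1.42% were called higher and 1.26% lower against C57BL6 WT, 3.96% higher and 4.73% lower against C57BL6-BALB/c WT, and 0.742% higher and 0.681% lower against both. The list was chosen on these same ratios, so nothing is read from that difference. The same shares apply to counts of called genes in the other lists below, which were also chosen with earlier results known. Both comparisons also share the Cx30-/- library. Mpo and Elane were below 50 normalized counts in every library and could not be called. The other 8 genes passed that minimum in each comparison with Cx30-/-, Camp, and Fpr1 against C57BL6 WT, only through their level in the Cx30-/- library. In bulk RNA, fewer cells of a type and less RNA per cell cannot be told apart.

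**Figure D1:**
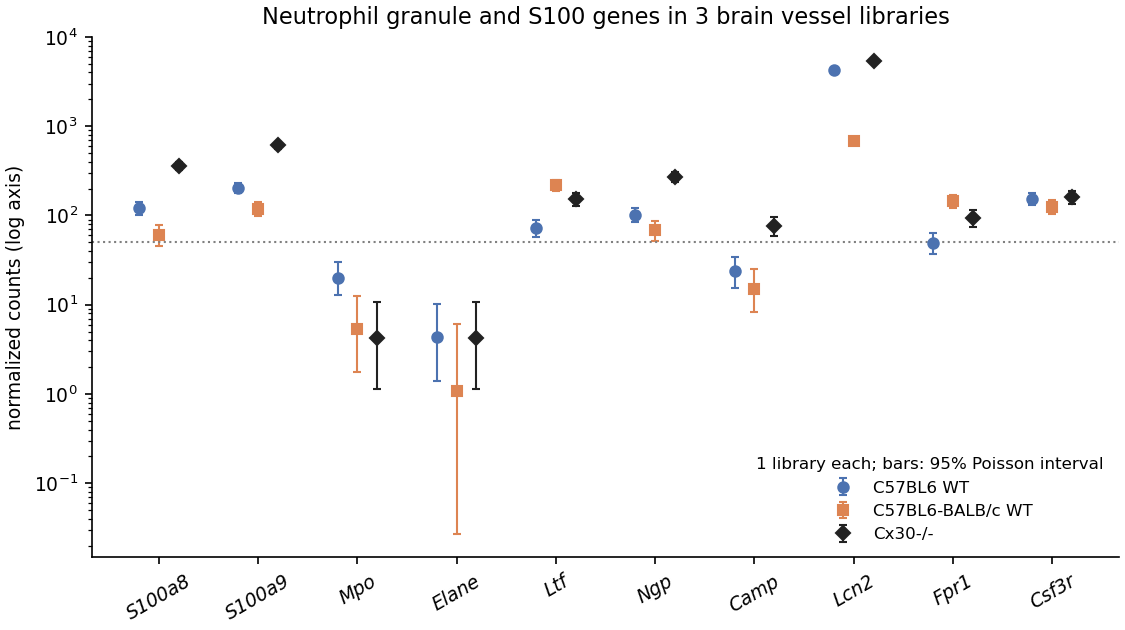
Normalized counts (log axis) of the 10 genes in the 3 libraries, 1 point per library, with 95% Poisson intervals of the counts and a dotted line at 50 normalized counts. S100a8, S100a9, Ngp, Camp and Lcn2 are highest in Cx30-/- and lowest in C57BL6-BALB/c WT, and Ltf and Fpr1 are highest in C57BL6-BALB/c WT.

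S100a8 and S100a9 encode the subunits of calprotectin, which binds calcium and zinc and makes up much of the neutrophil cytosol. S100a8 (ENSMUSG00000056054; GRCm38 chromosome 3, 90668978 to 90670035, plus strand) had 121.4 normalized counts in the C57BL6 WT library, 60.5 in C57BL6-BALB/c WT and 360.9 in Cx30-/-. The Cx30-/- library was highest, and its interval of 323.7 to 401.1 did not overlap those of the WT libraries. S100a8 in Cx30-/- had a log2 ratio of 1.57 to C57BL6 WT (95% interval 1.28 to 1.87) and of 2.58 to C57BL6-BALB/c WT (2.17 to 3.01). S100a9 (ENSMUSG00000056071; chromosome 3, 90692632 to 90695721, minus strand) had 201.7, 118.8 and 610.5 normalized counts in these libraries. Its levels thus followed the order of S100a8. Its log2 ratio of Cx30-/- was 1.598 against C57BL6 WT (1.38 to 1.82) and 2.36 against C57BL6-BALB/c WT (2.07 to 2.67). The genes lie 22.6 kb apart, and 0 of the 50-base windows of either transcript occur in a transcript of another gene.

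The promoters of the pair are shown because these neighbours moved together. They run from 250 bases before to 50 bases after the RefSeq start (GRCm38.p6; S100a8 at chr3:90668821-90669120, plus strand; S100a9 at chr3:90695672-90695971, minus strand), written 5′ to 3′ on the gene's strand. Capitals mark letters matching any of 4 motifs searched on both strands, C/EBP (TTGCNNAA), PU.1 (GAGGAA), RUNX (TGTGGT) and the TATA box (TATAAA), where lower case has no match.
S100a8: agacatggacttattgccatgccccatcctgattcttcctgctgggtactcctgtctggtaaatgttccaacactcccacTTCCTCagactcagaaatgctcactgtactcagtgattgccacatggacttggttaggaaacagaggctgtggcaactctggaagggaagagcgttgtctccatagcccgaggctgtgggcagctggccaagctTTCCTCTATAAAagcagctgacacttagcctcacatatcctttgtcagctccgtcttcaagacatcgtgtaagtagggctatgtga
S100a9: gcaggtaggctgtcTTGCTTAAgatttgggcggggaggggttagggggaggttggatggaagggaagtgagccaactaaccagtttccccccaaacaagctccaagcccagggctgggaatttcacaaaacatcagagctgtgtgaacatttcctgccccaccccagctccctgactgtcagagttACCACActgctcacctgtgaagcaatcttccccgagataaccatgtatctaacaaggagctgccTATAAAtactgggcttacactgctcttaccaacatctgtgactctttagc
The S100a8 promoter holds PU.1 letters from 170 and from 36 bases before the start and a TATA box from 30 bases before it, directly after the second PU.1 match. The S100a9 promoter holds C/EBP letters from 236 bases and RUNX letters from 64 bases before the start, and TATAAA at the listed start itself. The 2 windows thus share the TATA letters and none of the other 3 motifs. A match is a description of letters and not a measured binding site.

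Of the specific granule genes, Ngp, Camp and Lcn2 had the order of the S100 pair, highest in Cx30-/- and lowest in C57BL6-BALB/c WT, while Ltf was highest in C57BL6-BALB/c WT. Lcn2 differed from Ngp and Camp in the size of its ratios, which was small against C57BL6 WT. Ngp, neutrophilic granule protein, a cystatin-related protein (ENSMUSG00000032484; chromosome 9, 110419747 to 110423012, plus strand), had 102.2 normalized counts in the C57BL6 WT library, 68.0 in C57BL6-BALB/c WT and 271.7 in Cx30-/-. Ngp in Cx30-/- had a log2 ratio of 1.41 to C57BL6 WT (1.09 to 1.74) and of 1.997 to C57BL6-BALB/c WT (1.595 to 2.42). Camp, the cathelicidin antimicrobial peptide gene (ENSMUSG00000038357; chromosome 9, 109847379 to 109849617, minus strand), had 23.6, 15.1 and 75.5 normalized counts, from 27, 14 and 72 reads. Its log2 ratio was 1.68 against C57BL6 WT (1.02 to 2.38) and 2.32 against C57BL6-BALB/c WT (1.48 to 3.26). The Cx30-/- library was again highest for both genes, with intervals apart from those of the WT libraries.

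Ltf encodes lactoferrin, an iron-binding protein of the specific granules that is also made by secretory epithelia. Ltf (ENSMUSG00000032496; chromosome 9, 111019271 to 111042767, plus strand) had 72.5 normalized counts in the C57BL6 WT library, 219.3 in C57BL6-BALB/c WT and 152.1 in Cx30-/-. The C57BL6-BALB/c WT library was highest, and the intervals of the 3 libraries did not overlap. For Ltf the log2 ratio of Cx30-/- was 1.07 against C57BL6 WT (0.67 to 1.48) and -0.53 against C57BL6-BALB/c WT (-0.85 to -0.21), with opposite signs. Ltf was the called gene nearest to the threshold against C57BL6 WT, at 2.10-fold, and Fpr1 was just outside it at 1.91-fold. The gene lies on the same chromosome as Camp and Ngp, with gaps of 570 kb from Camp to Ngp and 596 kb from Ngp to Ltf.

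Lcn2 encodes lipocalin-2, which binds bacterial iron siderophores. Lcn2 (ENSMUSG00000026822; chromosome 2, 32384633 to 32388252, minus strand) had 4261.3 normalized counts in the C57BL6 WT library, 681.6 in C57BL6-BALB/c WT and 5301.9 in Cx30-/-. C57BL6 WT and Cx30-/- were high and C57BL6-BALB/c WT was low. The labels give Cx30-/- a C57BL6 background and the methods a mixed one, and a part of background in these levels was not tested. For Lcn2 the log2 ratio of Cx30-/- was 0.32 against C57BL6 WT (0.26 to 0.37) and 2.96 against C57BL6-BALB/c WT (2.84 to 3.08). Lcn2 ranked 3 of 14891 genes from the highest ratio against C57BL6-BALB/c WT and 2052 of 14776 against C57BL6 WT. It gave 85.0% of the counts of the 10 genes in C57BL6 WT, 47.4% in C57BL6-BALB/c WT and 75.4% in Cx30-/-, so that a sum over the list mostly follows Lcn2.

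The promoters of the 4 specific granule genes are shown to set Ngp and Camp, called against both WT libraries, beside Ltf and Lcn2, each called against 1, in the same form as above (GRCm38.p6; Ngp at chr9:110419558-110419857, plus strand; Camp at chr9:109849407-109849706, minus strand; Ltf at chr9:111019042-111019341, plus strand; Lcn2 at chr2:32387690-32387989, minus strand).
Ngp: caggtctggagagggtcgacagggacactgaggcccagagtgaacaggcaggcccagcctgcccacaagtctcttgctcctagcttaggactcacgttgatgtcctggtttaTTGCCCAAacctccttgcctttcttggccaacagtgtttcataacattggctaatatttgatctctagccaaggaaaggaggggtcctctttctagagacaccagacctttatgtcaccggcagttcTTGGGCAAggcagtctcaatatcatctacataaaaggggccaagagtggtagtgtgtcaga
Camp: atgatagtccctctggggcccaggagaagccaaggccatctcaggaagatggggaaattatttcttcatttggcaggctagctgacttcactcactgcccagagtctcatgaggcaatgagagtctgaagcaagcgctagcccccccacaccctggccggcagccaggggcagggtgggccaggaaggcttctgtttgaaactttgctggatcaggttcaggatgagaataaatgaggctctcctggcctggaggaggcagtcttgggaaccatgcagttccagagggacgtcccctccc
Ltf: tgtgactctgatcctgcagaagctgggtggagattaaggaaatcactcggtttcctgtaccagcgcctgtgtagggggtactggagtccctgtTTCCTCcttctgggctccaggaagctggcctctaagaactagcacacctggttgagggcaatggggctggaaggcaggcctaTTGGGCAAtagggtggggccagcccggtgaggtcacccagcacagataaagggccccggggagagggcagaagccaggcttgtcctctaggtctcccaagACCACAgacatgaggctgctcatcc
Lcn2: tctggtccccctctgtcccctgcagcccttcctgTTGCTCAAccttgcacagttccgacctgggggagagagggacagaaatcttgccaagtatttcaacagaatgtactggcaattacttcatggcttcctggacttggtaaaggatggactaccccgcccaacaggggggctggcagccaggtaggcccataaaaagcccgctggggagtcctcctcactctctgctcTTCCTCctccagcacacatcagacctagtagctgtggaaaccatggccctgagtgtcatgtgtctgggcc
Ngp holds the C/EBP letters at 138 and at 11 bases before the start, Ltf holds them at 75 and Lcn2 at 216 bases before it. Camp holds none of the 4 motifs in this window. Ltf and Lcn2 also hold PU.1 letters, from 157 and from 20 bases before the start. Of the 4 genes called higher in Cx30-/- against both WT libraries, S100a9 and Ngp have the C/EBP letters and S100a8 and Camp do not. A part of these letters in the levels was not tested. Over all 10 promoters the C/EBP letters occur in 4, the PU.1 letters in 6, the RUNX letters in 2 and the TATA box in 3. Of 32851 RefSeq promoters of the same length, 10.8% hold the C/EBP letters, 28.3% the PU.1 letters, 16.8% the RUNX letters and 13.6% the TATA box.

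Mpo and Elane, the azurophil granule genes, were close to the limit of counting. Mpo encodes myeloperoxidase, which makes hypochlorous acid (ENSMUSG00000009350; chromosome 11, 87793581 to 87804413, plus strand), and had 23 reads in C57BL6 WT, 5 in C57BL6-BALB/c WT and 4 in Cx30-/-. It was thus highest in C57BL6 WT, unlike the S100 pair, and lower in C57BL6-BALB/c WT, like S100a8. For Mpo the log2 ratio of Cx30-/- was -2.26 against C57BL6 WT (-4.25 to -0.71) and -0.36 against C57BL6-BALB/c WT (-2.70 to 1.85). Mpo reads covered 32.4% of the transcript in C57BL6 WT, 4.76% in C57BL6-BALB/c WT and 6.22% in Cx30-/-. Its exons overlap Gm11505 on the opposite strand over 512 bases, and without strand in these libraries reads there cannot be told apart. Elane encodes neutrophil elastase (ENSMUSG00000020125; chromosome 10, 79886247 to 79888215, plus strand) and had 5 reads in C57BL6 WT, 1 in C57BL6-BALB/c WT and 4 in Cx30-/-. The log2 ratio of Cx30-/- was -0.06 against C57BL6 WT (-2.39 to 2.16) and 1.96 against C57BL6-BALB/c WT (-1.38 to 7.58), so a difference was not detectable at this depth.

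Fpr1 and Csf3r encode receptors on the neutrophil surface, for formylated bacterial peptides and for the growth factor G-CSF. Fpr1 (ENSMUSG00000045551; chromosome 17, 17876471 to 17883940, minus strand) had 48.9 normalized counts in the C57BL6 WT library, 144.7 in C57BL6-BALB/c WT and 93.4 in Cx30-/-. It followed the order of Ltf, with C57BL6-BALB/c WT highest. For Fpr1 the log2 ratio of Cx30-/- was 0.93 against C57BL6 WT (0.44 to 1.44) and -0.63 against C57BL6-BALB/c WT (-1.04 to -0.23). Csf3r (ENSMUSG00000028859; chromosome 4, 126024550 to 126044440, plus strand) had 154.6, 124.2 and 160.5 normalized counts in C57BL6 WT, C57BL6-BALB/c WT and Cx30-/-. These levels were close to each other, with overlapping intervals. The log2 ratio of Cx30-/- was 0.05 against C57BL6 WT (-0.27 to 0.38) and 0.37 against C57BL6-BALB/c WT (0.01 to 0.73). Of the 50-base windows of the Csf3r transcript, 11.5% also occur in transcripts of other genes, where reads matching more than once were removed by the authors.

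**Figure D2:**
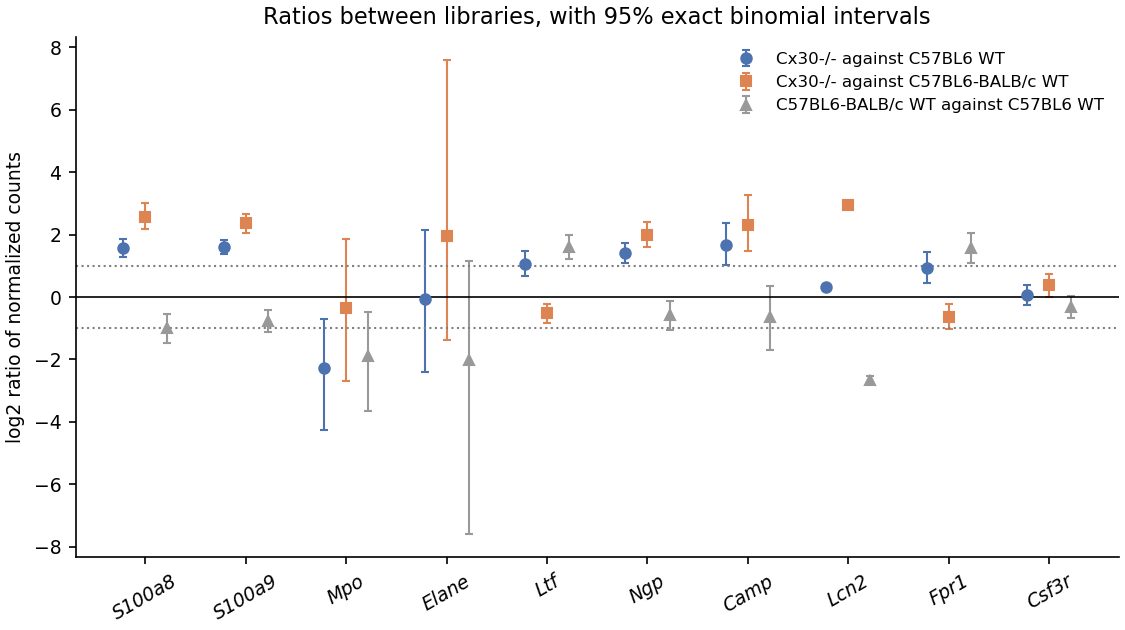
Log2 ratio of normalized counts for each of the 10 genes in the 3 comparisons between libraries, with 95% exact binomial intervals of the counts; dotted lines mark 2-fold. For Ltf and Fpr1 the ratios of Cx30-/- have opposite signs against the WT libraries, and for Lcn2 only the comparisons with C57BL6-BALB/c WT pass 2-fold.

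The WT libraries differed from each other in 4 of the 10 genes. Ltf and Fpr1 were called higher in C57BL6-BALB/c WT than in C57BL6 WT, with log2 ratios of 1.597 (1.22 to 1.98) and 1.57 (1.11 to 2.04). S100a8 and Lcn2 were called lower, with log2 ratios of -1.005 (-1.48 to -0.55) and -2.64 (-2.77 to -2.52). S100a8 is at the threshold itself, and S100a9 had -0.76 (-1.10 to -0.43), Ngp -0.59 (-1.05 to -0.13) and Camp -0.64 (-1.69 to 0.34). All of S100a8, S100a9, Ngp and Camp thus had lower values in C57BL6-BALB/c WT, the library that also had the lower endothelial and erythroid sums. Over all genes, 1.41% were called higher and 2.02% lower in this comparison. The median log2 ratio over the 10 genes, including those below the minimum and with counts under 3 set to 3, was -0.61 between the WT libraries, 1.00 for Cx30-/- against C57BL6 WT and 1.19 against C57BL6-BALB/c WT. Over all genes that passed the minimum it was 0.00035, -0.0046 and 0.0040 in the same order. The size factors, medians of ratios over all genes, hold these values near 0. The sets are also unlike, and the 10 genes were chosen on these ratios, so nothing is read from that difference.

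Counts set against S100a9 within a library do not depend on the size factors. Per 100 S100a9 counts there were 60.2 S100a8 counts in C57BL6 WT (95% interval 48.4 to 74.6), 50.9 in C57BL6-BALB/c WT (36.2 to 70.9) and 59.1 in Cx30-/- (51.6 to 67.7). Ngp gave 50.6, 57.3 and 44.5 counts and Camp 11.7, 12.7 and 12.4 counts in the same order. For these 3 genes the intervals of all libraries overlapped, over a range in which S100a9 itself differed 5.14-fold between Cx30-/- and C57BL6-BALB/c WT. The Camp interval was wide in C57BL6-BALB/c WT, 6.74 to 22.3 from 14 counts. The intervals of Elane also overlapped in all libraries, from only 5, 1 and 4 counts. The proportions of Ltf, Fpr1, Csf3r, Lcn2 and Mpo had intervals that did not overlap between at least 1 pair of libraries. S100a8, Ngp and Camp are the genes called with S100a9 against both WT libraries, from a list chosen on these ratios. The share of all genes with such overlap was not computed, so nothing is read from this division. Ltf gave 35.9 counts per 100 S100a9 counts in C57BL6 WT (27.6 to 46.4), 185 in C57BL6-BALB/c WT (146 to 235) and 24.9 in Cx30-/- (20.6 to 29.9). Fpr1 gave 24.2, 122 and 15.3 counts, again highest in C57BL6-BALB/c WT. Csf3r gave 76.6, 105 and 26.3 counts, lowest in Cx30-/-, where its own level was not lower. Lcn2 gave 2113, 574 and 868 counts, and Mpo gave 9.96 (6.19 to 15.3), 4.55 (1.45 to 10.9) and 0.687 (0.187 to 1.77).

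**Figure D3:**
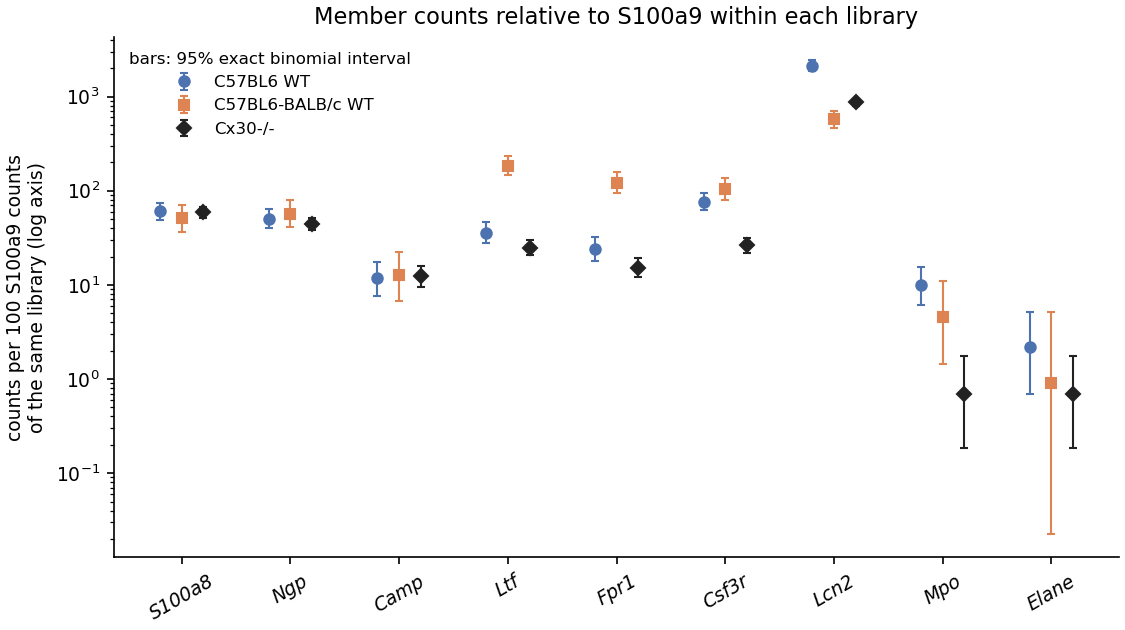
Counts of the other 9 genes per 100 S100a9 counts of the same library (log axis), 1 point per library with 95% exact binomial intervals. The points of S100a8, Ngp and Camp lie together in the 3 libraries, while those of Ltf, Fpr1, Csf3r, Lcn2 and Mpo separate.

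Levels were compared between genes per kilobase of transcript. In Cx30-/-, Lcn2 was highest at 3859 normalized counts per kilobase, followed by S100a9 at 1176, S100a8 at 932, Ngp at 223 and Camp at 126. Fpr1 had 70.5, Ltf 55.5, Csf3r 46.1, Elane 4.56 and Mpo 1.53 normalized counts per kilobase. Lcn2, S100a9, S100a8 and Ngp held the same 4 first places in C57BL6 WT, at 3101, 389, 314 and 84.0 normalized counts per kilobase. In C57BL6-BALB/c WT, Lcn2, S100a9 and S100a8 again led with 496, 229 and 156, and Fpr1 came next with 109, above Ltf with 80.0 and Ngp with 55.9. The level of Lcn2 on this scale depends on which of its 5 transcript rows is taken, since rows of different length had similar counts.

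By the distance of centred log2 levels over the 3 libraries, the genes most like S100a8 among 14978 included S100a9, Tnfsf8, Hbb-bt and Shisal2a. Hbb-bt encodes a beta-globin chain of red cells. Camp ranked 10 and Ngp 19 by this likeness, Lcn2 ranked 712 and Csf3r 3639, and Ltf and Fpr1 ranked 13370 and 13597, near the end of the order. Set against Ltf instead, a reference added after the values were seen, Fpr1 ranked 2. With 3 libraries, many genes share a pattern, and likeness over them describes these libraries only.

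Other genes of the neutrophil programme were taken from lists by granule type and maturation stage. Of 7 other specific granule genes, 3 passed the count minimum against C57BL6 WT and 1, Mmp8 (neutrophil collagenase), was called higher against both WT libraries, with 8.7 normalized counts in the C57BL6 WT library, 19.4 in C57BL6-BALB/c WT and 85.0 in Cx30-/-. It passed the minimum only through its level in Cx30-/-. Its log2 ratio was 3.28 against C57BL6 WT (2.33 to 4.40) and 2.13 against C57BL6-BALB/c WT (1.38 to 2.95). The most abundant of the list, Pglyrp1 (a peptidoglycan recognition protein), had 2159, 1541 and 2403 normalized counts and was not called in either comparison. Hp (haptoglobin) had 118, 94.0 and 158 normalized counts and was not called either. The median log2 ratio of the 7 genes, including those below the minimum, was 0.83 against C57BL6 WT and 1.02 against C57BL6-BALB/c WT. Over all genes that passed the minimum the medians were near 0. These sets are unlike, and the list was chosen with earlier results known, so nothing is read from that difference.

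Of 15 mature neutrophil genes, 8 passed the minimum in each comparison. Of these, 4 were called higher against C57BL6 WT and 5 against C57BL6-BALB/c WT, with 0 lower in either. Over all genes, 1.42% and 3.96% were called higher. Cxcr2, a chemokine receptor, had 4.4 normalized counts in the C57BL6 WT library, 24.8 in C57BL6-BALB/c WT and 56.6 in Cx30-/-, and was called higher against both. Retnlg, a resistin-like secreted protein, had 20.1, 18.4 and 74.5 normalized counts and was also called against both, with Cx30-/- again highest. Both genes passed the minimum only through their level in Cx30-/-. The log2 ratio of Retnlg was 1.89 against C57BL6 WT (1.19 to 2.64) and 2.02 against C57BL6-BALB/c WT (1.24 to 2.88). That of Cxcr2 was 3.70 (2.39 to 5.38) and 1.19 (0.46 to 1.96) in the same comparisons. The integrin chains Itgam, with 296, 227 and 316 normalized counts, and Itgb2, with 224, 117 and 255, are shared with microglia and other myeloid cells, and only Itgb2 against C57BL6-BALB/c WT was called. Asprv1, a protease, was lowest in Cx30-/-, at 81.8 normalized counts beside 120.5 and 106.9. Ly6g, the surface marker by which mouse neutrophils are usually identified, had 0 reads in C57BL6 WT, 1 in C57BL6-BALB/c WT and 2 in Cx30-/-, on a transcript row of 336 bases. Stfa2l1, another gene of mature neutrophils, had 0, 0 and 2 reads. Ly6g and Stfa2l1, both named after their values were seen, were thus at or near 0 in every library. Of the read-length windows of the Stfa2l1 transcript, 24.6% also occur in transcripts of other genes, where reads matching more than once were removed by the authors. Others of the list differed from this, with Cxcr2 and Retnlg highest in Cx30-/- and Asprv1 lowest there. Whether neutrophils were present was not tested.

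Among 5 other azurophil and promyelocyte genes, 2 passed the minimum and 0 were called against either WT library. Prtn3 (proteinase 3) had 46, 32 and 55 reads in C57BL6 WT, C57BL6-BALB/c WT and Cx30-/-. Ctsg (cathepsin G), Ms4a3 and Bpi had at most 3 reads in any library, as low as Elane. Prss57 had 247, 213 and 237 reads, but 1157 of its 2693 exon bases overlap Fstl3 on the opposite strand, and reads within that overlap cannot be assigned. Of 3 gelatinase granule genes, Mmp9 (gelatinase B) was called higher against C57BL6 WT, with a log2 ratio of 1.13 (0.74 to 1.53), and had 0.82 (0.43 to 1.22) against C57BL6-BALB/c WT. Adam8, a protease of several myeloid cells, had -0.50 and -0.97 in the same comparisons. The 6 NADPH oxidase subunits, which make superoxide in phagocytes, included 0 called genes against C57BL6 WT and 3 called higher against C57BL6-BALB/c WT. The most abundant, Cyba, had 573, 368 and 623 normalized counts. Ncf1 had the lowest log2 ratio of the 6 against C57BL6 WT, 0.04 (-0.24 to 0.31), and Ncf4 the highest, 0.65 (0.13 to 1.19). Ncf4 passed the minimum only through its level in Cx30-/-.

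Of 13 other S100 genes analysed, 7 passed the minimum in each comparison and 0 of these were called in either. The other 6 were too low to be called, among them S100a5 with 19, 2 and 0 reads in C57BL6 WT, C57BL6-BALB/c WT and Cx30-/-. S100a16 had 1957 normalized counts in the C57BL6 WT library, 1102 in C57BL6-BALB/c WT and 2163 in Cx30-/-, and S100b, a gene of astrocytes, had 1165, 885 and 1257. The largest log2 ratio against C57BL6 WT among the 7 was that of S100a6, 0.64 (0.45 to 0.82). S100a13 was the nearest to the threshold against C57BL6-BALB/c WT, at 0.998. The median over the 13 genes was 0.14 against C57BL6 WT and 0.51 against C57BL6-BALB/c WT.

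Of 10 ligands and receptors of the encoded proteins, 0 were called against C57BL6 WT and 2 were called higher against C57BL6-BALB/c WT. Tlr4, a receptor of the S100a8 and S100a9 dimer, had 178, 149 and 309 normalized counts, and its partner Ly96 was the other. Ly96 passed the minimum only through its level in Cx30-/-. Slc22a17, a receptor of Lcn2, had 15920, 16266 and 11431 normalized counts and Lrp1 14377, 15013 and 12367, neither called. Csf3, the ligand of Csf3r, had 4, 4 and 3 reads. Of 10 granulocyte regulators and chemokines, 0 were called against C57BL6 WT and 1, Cebpd, against C57BL6-BALB/c WT. Cebpd, a transcription factor of the acute-phase response, had 451 normalized counts in the C57BL6 WT library, 151 in C57BL6-BALB/c WT and 573 in Cx30-/-, in the order of Lcn2. Spi1 (the gene of PU.1) had 76.0, 62.6 and 110 and Cebpb 272, 170 and 240 normalized counts, not called. Cxcl12, a chemokine of vessels that holds neutrophils in the bone marrow, had 14553, 8375 and 16222 normalized counts and was not called either. The granulocyte factors Cebpe and Gfi1 had at most 7 reads in any library. Among 8 genes of acute inflammation of endothelium and glia, Lrg1 had 1287, 551 and 2410 normalized counts, with log2 ratios of 0.90 (0.81 to 1.00) and 2.13 (1.99 to 2.27). Vcam1, an endothelial adhesion molecule, had 5803, 4144 and 6274 normalized counts. Steap4 was called lower against C57BL6 WT, with 535, 151 and 191 normalized counts.

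**Figure D4:**
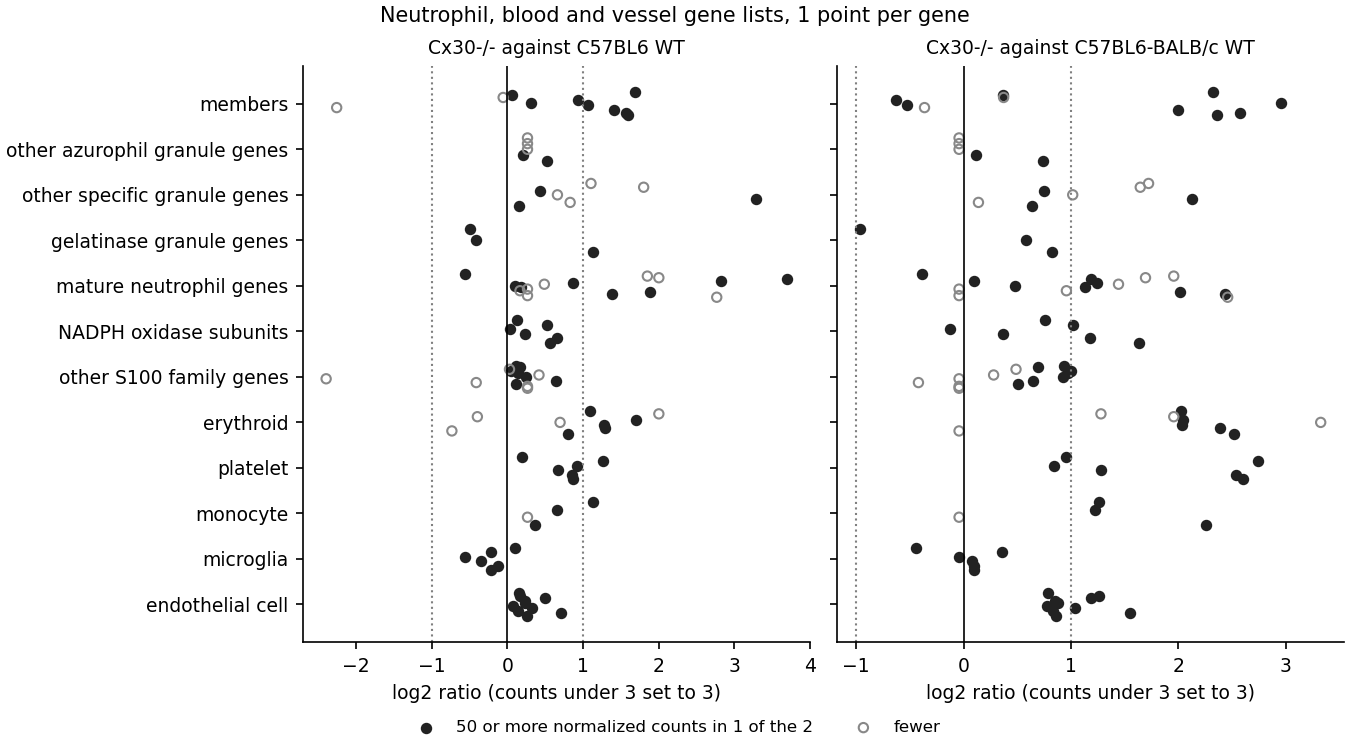
Log2 ratios of Cx30-/- against C57BL6 WT (left) and against C57BL6-BALB/c WT (right), 1 point per gene, with counts under 3 set to 3; filled points had at least 50 normalized counts in 1 of the 2 libraries and dotted lines mark 2-fold. The filled points of the 13 other S100 genes include none past 2-fold in either panel, and 4 filled erythroid points lie past 2-fold in both.

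Markers of other cells in blood were counted beside the 10 genes. Of the 5 erythroid markers that passed the minimum, 4 were called higher against C57BL6 WT, 5 against C57BL6-BALB/c WT and 4 against both. Over all genes, 1.42%, 3.96% and 0.742% were called higher in these comparisons. The marker lists were chosen with earlier results known, so nothing is read from that difference. Hbb-bs, a beta-globin chain, had 5652 normalized counts in the C57BL6 WT library, 3354 in C57BL6-BALB/c WT and 13725 in Cx30-/-. The 6 platelet markers summed to 644, 450 and 1129 normalized counts, with 1 called higher against C57BL6 WT and 4 against C57BL6-BALB/c WT. Of the 3 monocyte markers that passed, 1 was called higher against C57BL6 WT and 3 against C57BL6-BALB/c WT. Ccr2 was called against both, with 53.3, 48.6 and 116 normalized counts. Of the called markers, Hba-a1 and Gp9 passed the minimum in both comparisons only through their level in Cx30-/-. The same held for Slc4a1, Treml1, Ppbp, Plac8 and Ccr2 against C57BL6-BALB/c WT. Gp9 was the platelet marker called against C57BL6 WT. Ly6c2, a marker of blood monocytes named after its values were seen, had 1, 1 and 3 reads. Whether its reads also match other genes, and so were removed, was not examined. The monocyte sum of 582, 385 and 935 normalized counts was mostly F13a1, with 475, 321 and 748, a gene that the perivascular macrophage list also holds. The erythroid, platelet and monocyte sums were highest in Cx30-/- and lowest in C57BL6-BALB/c WT, the order of S100a8, S100a9, Ngp and Camp. The endothelial, mural and perivascular macrophage sums had the same order, the mural sum at 90971, 83724 and 105874 and the macrophage sum at 1670, 1102 and 2260 normalized counts. The T cell sum did not, at 41.0, 37.8 and 30.4 normalized counts. Single markers did not all follow the order of their sum. The mural genes Acta2 (12709, 18730 and 15447), Myh11 (10367, 17348 and 15742) and Tagln (7895, 11109 and 10383) were highest in C57BL6-BALB/c WT, unlike Pdgfrb (7063, 4353 and 7392). Among the macrophage genes Lyve1 was highest in C57BL6 WT (169, 86.4 and 113). The part of these cells in the levels of the 10 genes was not tested.

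Markers of resident cells were also counted. Of 6 microglia markers, 0 were called in either comparison, with sums of 5507, 4042 and 4520 normalized counts. Of 4 perivascular macrophage markers, 0 were called against C57BL6 WT and 2 against C57BL6-BALB/c WT. Of 10 endothelial markers, 0 were called against C57BL6 WT and 4 were called higher against C57BL6-BALB/c WT. The 7 mural, 4 astrocyte and 4 neuron markers included 0 called genes in either comparison, and the neuron sum was lowest in Cx30-/-, at 16603 normalized counts beside 24363 in C57BL6 WT and 29772 in C57BL6-BALB/c WT. Markers of B cells, of T cells and of eosinophils, basophils and mast cells were all below 50 normalized counts in each library. Of the progenitor markers Kit, Cd34 and Flt3, which vessels and brain cells also express, 0 were called. The part of these differences in cell content was not tested either.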

How the data were processed

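Polyadenylated RNA of isolated brain vessels was sequenced in 3 libraries of unstranded 50-base reads, 1 per group. The authors ran Eoulsan 1.1.6 with Bowtie 0.12.7, kept reads with a unique match only, and deposited the raw count of alignments on the exons of each of 82813 Ensembl transcripts, with the same count as a fraction of 1 library total (20654144 to 24830975). The methods name mm10, but chromosome 1 positions in the files run past the annotated end of GRCm38, so coordinates were taken from GENCODE M21 through transcript identifiers, which named 69375 rows (83.8%). Each gene took its row with the largest total count.

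Size factors were medians of ratios over all genes, as in the DESeq package of the methods. Intervals are exact conditional binomial (scipy 1.17.1). Called means a ratio of at least 2 with at least 50 normalized counts in 1 of the 2 libraries. The members and all other lists were chosen with earlier results of these data known. Named were all 10 members and, from each list other than markers, the 2 most abundant genes, those with the highest and the lowest ratio against C57BL6 WT, and genes called against both WT libraries, and the 5 genes most like S100a8. Ly6g, Stfa2l1, S100a5, F13a1, Ctsg, Ms4a3, Bpi, Ly96, Csf3, Cebpe, Gfi1, Ly6c2, Hbb-bs, Ccr2, Acta2, Myh11, Tagln, Pdgfrb and Lyve1 were added after their values were seen. So were Hba-a1, Slc4a1, Gp9, Treml1, Ppbp and Plac8. The calling step was tested on simulated counts. S100a14, Selp, Ms4a6c, Ms4a1 and Ahsp were not analysed here, and 1 gene that the rule names is not reported here. Alternatives were other scalings, other transcript rows, a pseudocount, and other count and fold minimums. Promoters are those of RefSeq on GRCm38.p6, with 1 entry for each of the 10 members.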

Additional observations from a re-analysis of the deposited data

How the results depend on the processing

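With a fold threshold of 4 in place of 2, the count of members called higher in Cx30-/- became 0 against C57BL6 WT and 0 against both WT libraries, and 1 member, Lcn2, differed between the WT libraries. Against C57BL6-BALB/c WT 4 were past that threshold. The threshold itself accounts for these counts. Every other alternative (TMM, upper quartile or total count scaling, summed or longest transcript rows, a pseudocount of 1, other count minimums, a fold of 1.5) left each count within 1.5 times its value. Requiring 50 normalized counts in each library dropped Camp from the comparisons with Cx30-/- and Fpr1 from the WT difference, and upper quartile scaling or the pseudocount dropped S100a8 from the WT difference. Of 180 recomputed member ratios, 0 changed sign and all 180 stayed inside their counting intervals. With the longest transcript rows, member ratios moved only through the size factors, so that setting is no check on the choice of row. No paired analysis was possible because each group has 1 library. For the same reason no replicate could be left out, and no difference can be set against a spread between mice. Depth limited Mpo and Elane.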
